A study of Rattus norvegicus with 10 samples.

Results

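Small leucine-rich proteoglycans are secreted matrix proteins built around a run of leucine-rich repeats, and most carry chondroitin, dermatan or keratan sulfate chains. The 10 genes described here are Dcn, Bgn and Aspn (class I), Fmod, Lum, Prelp and Omd (class II), Epyc and Ogn (class III) and Chad (class IV). They, and the gene lists set beside them, were chosen by name with earlier results of these data known. Each of the 10 has 1 probeset with that symbol in the platform annotation, and they are 10 of 15037 named genes and of 23188 probesets tested. Of the 10, 8 lay above background on every array, and the probesets of Epyc and Chad lay under it on every array.

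These proteins bind the surface of collagen fibrils and limit how thick the fibrils grow, and several also bind growth factors of the TGF-beta family or innate immune receptors. In the disc they are found in both the fibrous outer ring and the gelatinous core, the nucleus pulposus, and fragments of them accumulate as the disc degenerates. The core proteins can be cut by metalloproteinases, and fibromodulin (Fmod) and lumican (Lum) compete for related sites on collagen.

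The cells were nucleus pulposus cells of male Sprague Dawley rats (300 g, 3 to 4 months old), transduced with lentivirus. ShCtrl (5 arrays, numbered 1 to 5 after their titles) carried the control ShRNA, pLKO.1, and ShBNIP3 (5 arrays, 6 to 10) particles meant to knock down Bnip3, which sits in the mitochondrial outer membrane and tags mitochondria for removal by autophagy (mitophagy). RNA of both groups was collected 4 days after transduction, so every sample had been infected with a lentivirus. The number of hairpins and whether the arrays came from separate cultures or animals are not given in the sources used here, and the p-values therefore rest on a spread between samples that may be only technical.

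Whole-transcript arrays gave log2 values, used as the authors normalized them. Differences are ShBNIP3 minus ShCtrl on that scale, called at an adjusted p under 0.05 in limma over all 23188 probesets. Bnip3 itself fell by 3.21 (SE 0.40, limma adjusted p = 0.00020), and no ShBNIP3 array reached the ShCtrl range. Array medians lay between 6.16 and 6.19. The background level, the 95th percentile of the antigenomic probesets, lay between 6.50 and 6.78. ShCtrl array 4 and ShBNIP3 array 10 stood apart, with mean correlations to their groups of 0.983 and 0.986 where the other 8 arrays averaged 0.992, so the results of the members above background and the counts of the lists are given with and without this pair, and the single genes of the lists over all arrays. Of the nucleus pulposus markers with a named probeset, Acan, Col2a1 and Car3 were above background on every array, while Krt8, Krt18, Krt19, Shh and Noto were at background on every array. Cd24 was above background on 7 arrays, and Cdh2 on the 5 ShBNIP3 arrays alone.

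Of the 7 members found in the RefSeq promoter table (build GRCr8; Dcn, Bgn and Prelp are the others), Fmod and Omd are shown because their levels differed most between the groups, in opposite directions. Each line holds the 250 bases before the annotated start, 5′ to 3′ on the strand of the gene, for Fmod chr13:48045317-48045566 (plus strand) and for Omd chr17:15274871-15275120 (minus strand). Capitals mark matches, on either strand, to any of 5 short motifs: the TATA box TATAAA, the motif CCAAT of NF-Y, the Sp-factor motif GGGCGG, the hypoxia response core ACGTG and the AP-1 motif TGANTCA.
Fmod: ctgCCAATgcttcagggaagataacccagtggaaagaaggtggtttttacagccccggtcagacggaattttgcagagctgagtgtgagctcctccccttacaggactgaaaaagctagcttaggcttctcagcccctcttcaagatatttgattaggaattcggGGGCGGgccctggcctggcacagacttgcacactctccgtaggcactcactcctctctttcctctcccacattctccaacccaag
Omd: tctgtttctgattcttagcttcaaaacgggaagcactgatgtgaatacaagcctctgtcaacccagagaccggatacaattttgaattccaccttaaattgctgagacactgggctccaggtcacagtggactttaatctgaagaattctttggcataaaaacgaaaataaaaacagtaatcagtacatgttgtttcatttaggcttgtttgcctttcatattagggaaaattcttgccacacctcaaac
The Fmod window held CCAAT at -247 and GGGCGG at -85 from the start, with no overlap, and the Omd window held none of the 5. Among 33469 rat promoters, CCAAT was found in 34.0% of such windows, GGGCGG in 30.5%, ACGTG in 16.6%, TATAAA in 12.9% and TGANTCA in 6.34%. A match is a description of the letters and not of a bound site. GC content was 52.8% in the Fmod window, the same as in that of Lum, and 38.8% in that of Omd.

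In the same RefSeq annotation most members lie in 3 runs of neighbouring genes. Dcn, Lum, Kera and Epyc follow each other on chromosome 7, Prelp and Fmod are adjacent protein-coding genes on chromosome 13, and Ogn, Omd and Aspn follow each other on chromosome 17 inside the span of Cenpp. Bgn lies on chromosome X and Chad on chromosome 10.

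Knockdown of Bnip3 went with lower Fmod and Prelp, the members on chromosome 13. Both are class II proteoglycans, and they were the 2 of 10 members called lower, where 7.87% of all probesets and 14.8% of those above background on at least 5 arrays were. The last share is over probesets like the 8 members above background, which include both. Fmod alone also passed a minimum change of 2-fold, where 2.74% of probesets did in that direction. No member was called higher over all 10 arrays, where 7.61% of all probesets and 14.2% of those above background were. The median log2 difference of the 10 members was 0.03 and that of all probesets 0.02. The plot of values by array shows each gene on its own axis.

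**Figure D1:**
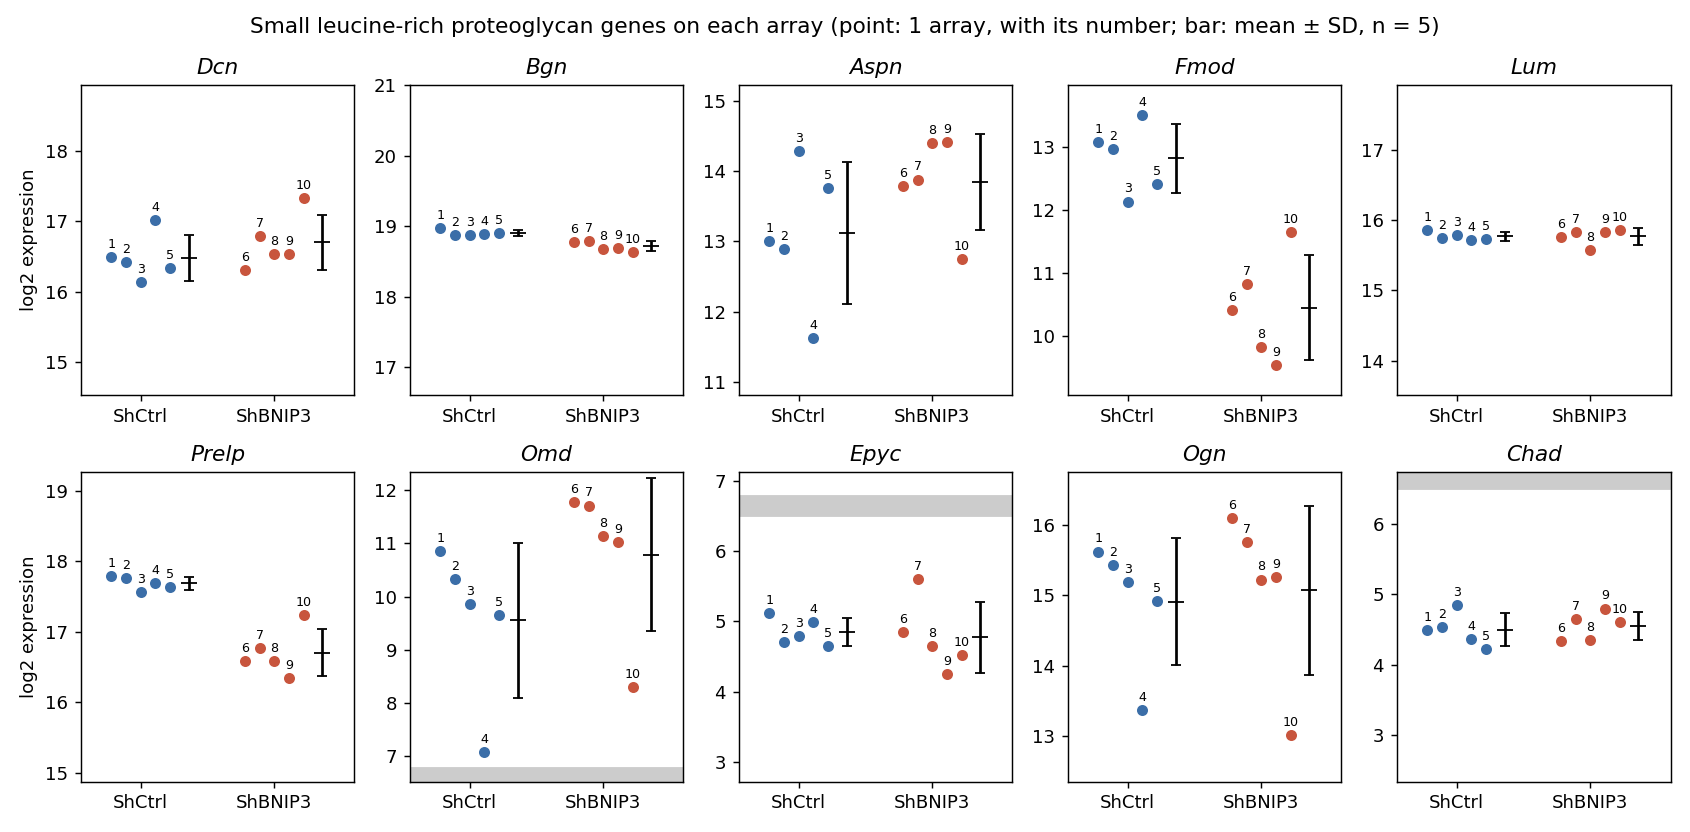
Log2 expression (vertical axes) of the 10 genes on the 5 ShCtrl and 5 ShBNIP3 arrays, 1 point an array with its number, with the mean ± SD beside each group. The grey band is the range of the background level. Fmod, Prelp and, by a small margin, Bgn have groups that do not overlap. Omd, Ogn and Aspn have their lowest points at arrays 4 and 10, and Epyc and Chad lie below the band.

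Fmod encodes fibromodulin, which binds collagen types I and II and carries keratan sulfate chains. Its levels were 13.08, 12.97, 12.14, 13.51 and 12.41 on ShCtrl arrays 1 to 5 and 10.41, 10.83, 9.82, 9.54 and 11.65 on ShBNIP3 arrays 6 to 10. Every ShBNIP3 array lay under every ShCtrl array, and the highest ShBNIP3 value was that of array 10. The mean fell from 12.8 ± 0.55 to 10.4 ± 0.84 (mean ± SD, n = 5 each), which is a log2 difference of -2.37 (SE 0.37, limma adjusted p = 0.00086). This left 19.3% of the control level (95% confidence interval 11.1% to 33.5%), a 5.18-fold fall. The fall was 5.66-fold without arrays 4 and 10, and adjusted p stayed at or under 0.0034 in all 16 other settings, which included leaving out each array. Fmod was the steepest faller of the family, and its fall exceeded that of 96.7% of all probesets called lower.

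Prelp encodes prolargin, a class II member whose basic tail binds heparan sulfate and which links collagen to basement membranes. Its levels were 17.80, 17.76, 17.56, 17.70 and 17.63 in ShCtrl and 16.59, 16.77, 16.58, 16.35 and 17.23 in ShBNIP3. The ShCtrl arrays lay close together, the groups did not overlap, and array 10 was again the highest of the knockdown. The mean fell from 17.7 ± 0.10 to 16.7 ± 0.33 (mean ± SD, n = 5 each), which is a log2 difference of -0.98 (SE 0.15, limma adjusted p = 0.00093). This left 50.5% of the control level (95% confidence interval 40.1% to 63.7%). Without arrays 4 and 10 the fall was 2.17-fold (limma adjusted p = 8.31e-05), where 10.1% of probesets were called lower. The RNA came from whole cultures, so fewer cells that make these transcripts and less transcript per cell cannot be told apart.

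Lum encodes lumican, the closest relative of fibromodulin among the members and a regulator of fibril spacing in cornea, tendon and disc. Its levels were 15.86, 15.74, 15.79, 15.72 and 15.72 in ShCtrl and 15.75, 15.83, 15.57, 15.83 and 15.86 in ShBNIP3. The groups overlapped almost entirely. The log2 difference was 0.00 (SE 0.10, limma adjusted p = 0.998), with a 95% confidence interval of -0.23 to 0.23, or 0.855-fold to 1.17-fold of the control level. It was -0.034 (limma adjusted p = 0.89) without arrays 4 and 10. The response of Fmod differed from that of Lum by -2.37 (SE 0.43), with an exact two-sided permutation p of 0.0079, the smallest that 5 against 5 arrays allow, and 0.048 adjusted over the 6 pairs of same-class members compared. From class II these hold only Fmod with Lum and Prelp with Omd, and the adjusted p of 0.048 depends on that choice of pairs. That adjusted p was 0.095 without array 1, array 2 or array 5, and 0.071 without array 4, while the difference itself stayed between -2.65 and -2.13 in the 10 fits with 1 array left out.

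Omd encodes osteomodulin (osteoadherin), a keratan sulfate member known from bone and mineralizing tissue. Its levels were 10.85, 10.33, 9.86, 7.08 and 9.66 in ShCtrl and 11.78, 11.71, 11.13, 11.03 and 8.30 in ShBNIP3. Within each group 1 array lay far below the rest, array 4 and array 10, and the other 4 ShBNIP3 arrays all lay above the other 4 ShCtrl arrays. With all arrays the log2 difference was 1.23 with an SE of 0.73, and was not called (limma adjusted p = 0.32). Without arrays 4 and 10 it was 1.24 (SE 0.26, limma adjusted p = 0.0049), 2.36-fold, and Omd was then the only member called higher, where 9.84% of all probesets were. Leaving out array 4 alone gave 0.62 (limma adjusted p = 0.56) and leaving out array 10 alone 1.86 (limma adjusted p = 0.051). The value on array 10 was 1.21 above that on array 4, close to the difference over the other 8 arrays. Set against Omd, its same-class pair, Prelp differed in response by -2.22 (SE 1.00), with an exact permutation p of 0.048 and 0.14 adjusted over the 6 pairs, or 0.024 adjusted without array 10.

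**Figure D2:**
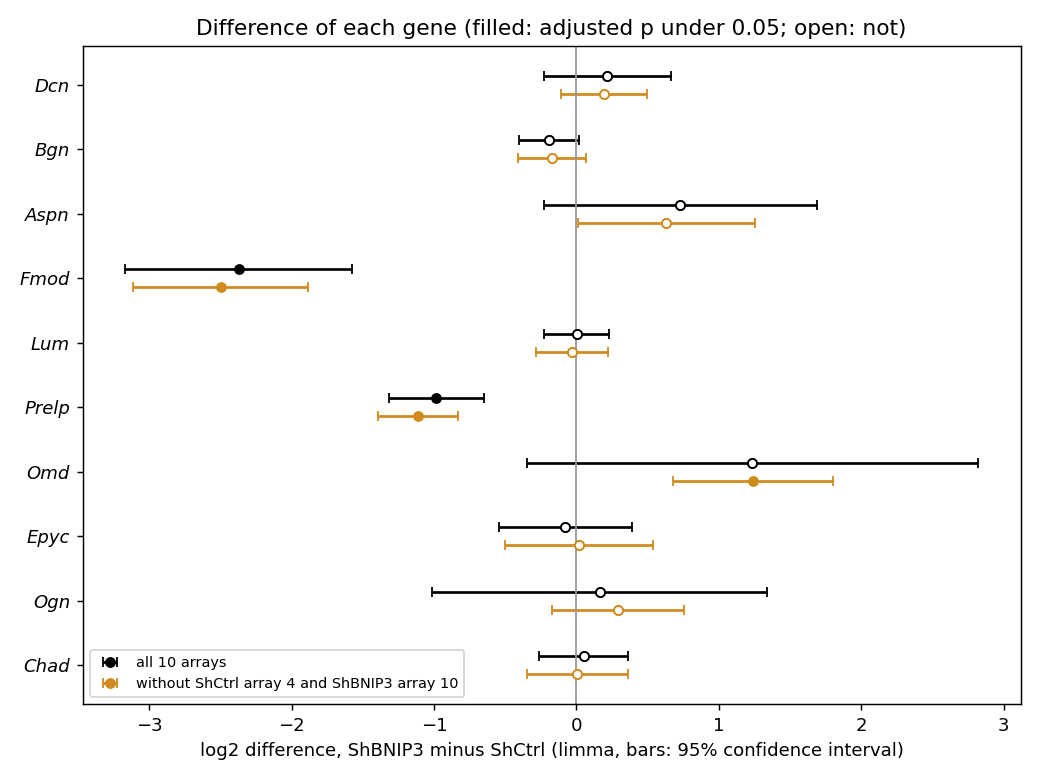
Log2 difference of each gene, ShBNIP3 minus ShCtrl (horizontal axis), with its 95% confidence interval from limma, over all 10 arrays (black) and without ShCtrl array 4 and ShBNIP3 array 10 (orange). Filled points have an adjusted p under 0.05. Fmod and Prelp lie left of 0 in both fits, the interval of Lum is narrow around 0, and that of Omd narrows from -0.35 to 2.82 down to 0.68 to 1.80.

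The class I members are decorin and biglycan, which carry chondroitin or dermatan sulfate chains and bind TGF-beta, and asporin, which carries a stretch of aspartates in place of a chain and restrains TGF-beta in cartilage. None of these was called in the fit over all arrays. Dcn was at 16.49, 16.42, 16.14, 17.02 and 16.33 in ShCtrl and at 16.30, 16.79, 16.54, 16.54 and 17.33 in ShBNIP3, so the groups overlapped and arrays 4 and 10 held the highest value of each. Its log2 difference was 0.22 (SE 0.20, limma adjusted p = 0.58), with a 95% confidence interval of 0.855-fold to 1.58-fold. It was 0.19 (limma adjusted p = 0.39) without arrays 4 and 10.

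Bgn had the smallest spread of the class. Its levels were 18.98, 18.87, 18.88, 18.89 and 18.90 in ShCtrl and 18.78, 18.79, 18.68, 18.68 and 18.63 in ShBNIP3. All 5 ShBNIP3 values lay under all 5 ShCtrl values, as they did for 3 of the 10 members (Fmod, Prelp and Bgn) and for 6.29% of all probesets. The difference was -0.19 (SE 0.10), 87.5% of the control level, with an exact permutation p of 0.0079 and a limma adjusted p of 0.24. The limma adjusted p was 0.042 with a trended and robust variance, which sets the variance from probesets of like brightness, and 0.32 without arrays 4 and 10 (log2 -0.17). The highest value of any probeset on any array was 19.7, and whether the array scale compresses differences at the level of Bgn was not tested.

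Aspn ranged widely within the groups. Its levels were 13.01, 12.89, 14.29, 11.63 and 13.76 in ShCtrl and 13.79, 13.88, 14.40, 14.42 and 12.75 in ShBNIP3. Arrays 4 and 10 were the lowest of their groups, and the groups overlapped. The log2 difference was 0.73 (SE 0.44, limma adjusted p = 0.33), and 0.63 (SE 0.28, limma adjusted p = 0.15) without these arrays. With 1 array left out it lay between 0.36 (without array 4) and 1.02 (without array 3), and was not called. In the tests of response between class I members the differences were 0.41 for Dcn minus Bgn, -0.51 for Dcn minus Aspn and -0.92 for Bgn minus Aspn. None passed after adjustment over the 6 pairs (exact permutation test, adjusted p = 0.20, 0.61 and 0.20). Dcn minus Aspn lay between -0.95 (without array 10) and -0.0061 (without array 4) with 1 array left out.

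Ogn encodes mimecan (osteoglycin), a class III member found in bone, vessel wall and disc. Its levels were 15.62, 15.43, 15.19, 13.36 and 14.92 in ShCtrl and 16.09, 15.76, 15.22, 15.26 and 13.02 in ShBNIP3. As for Omd and Aspn, its neighbours on chromosome 17, array 4 was the lowest of ShCtrl and array 10 the lowest of ShBNIP3. The log2 difference was 0.16 (SE 0.54, limma adjusted p = 0.90), with a wide 95% confidence interval of 0.496-fold to 2.53-fold. Without both arrays it was 0.29 (SE 0.21, limma adjusted p = 0.41).

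Epyc (epiphycan, a proteoglycan of growth plate cartilage) and Chad (chondroadherin, a cartilage protein that binds integrins and carries no long chain) were not detected by the background rule used here. Epyc lay between 4.25 and 5.60 and Chad between 4.22 and 4.85 over the 10 arrays, under the background level on each, and no fold is given for them. The response of Ogn differed from that of Epyc by 0.24 (SE 0.65, exact permutation p = 0.61, also 0.61 adjusted over the 6 pairs).

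Arrays 4 and 10 set the spread of several members, and they departed from their groups in the same direction. On array 4 the deviations of Omd, Ogn and Aspn from the median of the other ShCtrl arrays were -3.01, -1.95 and -1.76, and on array 10 those from the other ShBNIP3 arrays were -3.12, -2.49 and -1.39. Dcn deviated upwards on both, by 0.64 and 0.79, and Fmod by 0.82 and 1.53. Prelp deviated by 0.00 on array 4 and by 0.65 on array 10, and Lum and Bgn by at most 0.10 in size. Bnip3 was also the highest of its group on each, 1.68 above the other ShCtrl arrays on array 4 and 1.48 above the other ShBNIP3 arrays on array 10. Across 10806 other probesets above background, the deviations of array 4 and array 10 from their group means correlated at 0.64, the highest of the 25 pairs between the groups (the next was 0.33). That correlation is across genes, which are not independent replicates, and no label ties the arrays together. Set directly against each other, array 10 minus array 4 gave -1.87 for Fmod, -0.46 for Prelp, -0.27 for Bgn, 0.31 for Dcn, 1.12 for Aspn and 1.21 for Omd, each with the sign of the difference over the other 8 arrays. Ogn at -0.35 and Lum at 0.14 had the opposite sign to the other 8 arrays (0.29 and -0.034).

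**Figure D3:**
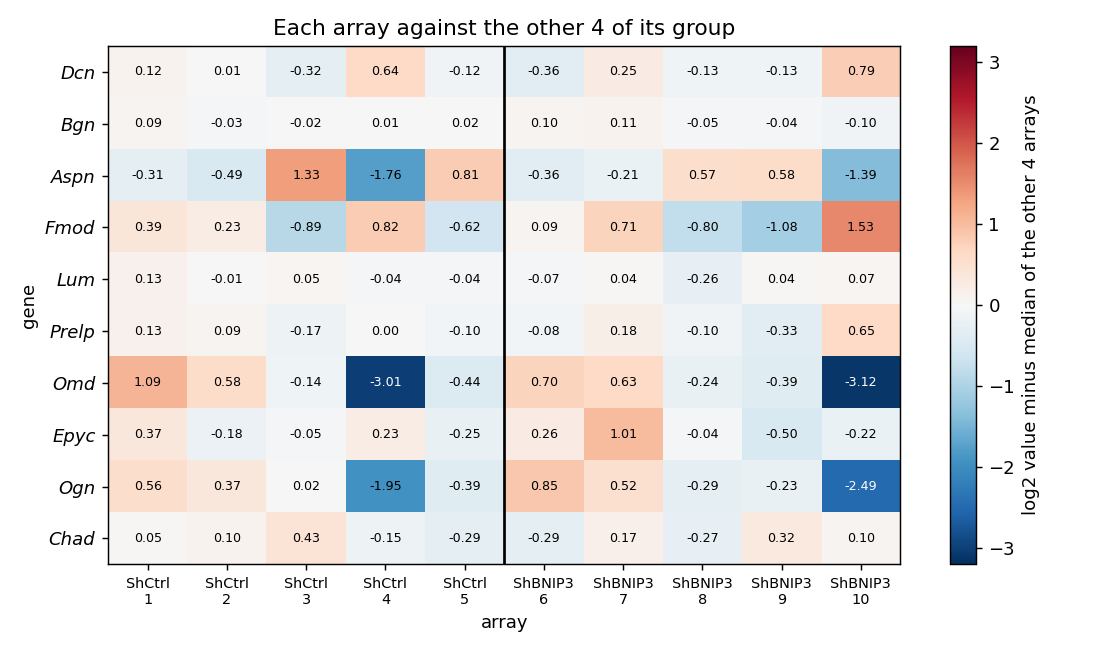
Deviation of each array (columns, by group and number) from the median of the other 4 arrays of its group, for each gene (rows), on the log2 scale, red above and blue below. The columns of ShCtrl array 4 and ShBNIP3 array 10 share low Omd, Ogn and Aspn and high Fmod and Dcn, while Lum and Bgn stay near 0 on all arrays.

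Other leucine-rich repeat proteoglycans gave little signal. Of 8 listed, 3 have a named probeset and 0 were called in limma (1 at an unadjusted p under 0.05, Kera). Tsku (tsukushi), an inhibitor of BMP and Wnt signalling, was the member above background, at 11.4 ± 0.75 in ShCtrl and 11.4 ± 0.54 with the knockdown (SD, n = 5 each; limma adjusted p = 0.94). The corneal keratocan gene Kera and the retinal nyctalopin gene Nyx were at background on every array. Kera was called lower within the background range without arrays 4 and 10, without array 10 alone, and with array weights.

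The collagen ligands of these proteoglycans fell in part. Of 16 collagens and fibril partners measured (25 listed), 8 were called lower, where 7.87% of all probesets and 14.8% of those above background were, and 0 higher, and the list median was -0.38. Of the 16, 6 were at background on every array, so the share of 14.8% is not over a like set. Col14a1, a fibril-associated collagen, fell 2.86-fold (a log2 difference of -1.51 with an SE of 0.27; limma adjusted p = 0.0021). Col3a1, a chain of thin fibrils, fell 1.64-fold (-0.71 on that scale, SE 0.11; limma adjusted p = 0.00062). Col2a1, the main fibril chain of nucleus pulposus and cartilage, fell 1.59-fold (limma adjusted p = 0.013) and Col1a1, that of fibrous tissue, 1.32-fold (limma adjusted p = 0.016). Comp, a fibril organiser of cartilage, was called lower within the background range. Without arrays 4 and 10 the list had 6 lower, where 10.1% of all probesets were.

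Most measured markers of fibroblasts and the outer ring were lower, as Fmod and Prelp were. Of 8 such markers, 5 were lower and 0 higher (Col1a1, Col3a1, Col14a1, Thy1 and Fbln1), with the same counts without arrays 4 and 10, and the mean log2 level of the list lay between 12.7 and 12.8 on the ShCtrl arrays and between 12.0 and 12.4 on the ShBNIP3 arrays. Col1a1, Col3a1 and Col14a1 were already counted in the collagen list, as were Col2a1 and Comp of the marker lists below, so these are not separate calls. The tendon factor Scx differed by -0.23 (limma adjusted p = 0.36), the growth factor receptor Pdgfra by 0.52 in the other direction (limma adjusted p = 0.22), and Tnmd was at background on every array. Of 7 smooth muscle and pericyte markers 3 were lower (Cspg4, Des and Pdgfrb) and 0 higher, with a mean level of 9.59 to 10.8 in ShCtrl and 8.69 to 9.17 in ShBNIP3, and Myh11 and Rgs5 at background throughout. Of the nucleus pulposus markers 2 of 10 were lower (Car3 and Col2a1) and 1 higher (Cdh2). Cdh2 was at background on every ShCtrl array and rose at least 1.57-fold. The mean level of the list was 6.73 to 6.95 in ShCtrl and 6.51 to 6.73 in ShBNIP3. The counts of these lists stand beside 7.87% lower and 7.61% higher among all probesets, and 14.8% and 14.2% among those above background. The last 2 shares are not over a like set, since each list holds markers at background on every array. Without arrays 4 and 10 the smooth muscle list had 3 lower and 1 higher, and the nucleus pulposus list 3 lower and 1 higher. In that fit 10.1% of all probesets were called lower and 9.84% higher.

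Other lists of cell type markers held calls too. Among all probesets 7.61% were called higher and 7.87% lower, or 9.84% and 10.1% without arrays 4 and 10. Among those above background the shares were 14.2% and 14.8%. Many of these markers were at background, so the last 2 shares are not over a like set. Of 8 macrophage and leukocyte markers 3 were higher and 0 lower, with a mean level of 5.20 to 5.42 in ShCtrl and 5.51 to 5.85 in ShBNIP3. Cd14, a co-receptor for bacterial lipids, rose 2.17-fold (limma adjusted p = 0.0070), the lysosomal Cd68 at least 2.81-fold (limma adjusted p = 0.0018), and Cd53 was called within the background range, where Ptprc, Csf1r, Aif1, Itgam and Lyz2 also lay on every array. The list had 3 higher and 1 lower without arrays 4 and 10. Of 3 measured Schwann and neural markers 2 were lower, with a mean level of 9.89 to 10.7 in ShCtrl and 9.17 to 9.48 in ShBNIP3, and 2 were lower without arrays 4 and 10. The calcium-binding S100b fell at least 4.55-fold (limma adjusted p = 3.96e-05) and the adhesion molecule Ncam1 2.09-fold (limma adjusted p = 0.0063), and Sox10 was at background on every array. Of 6 cartilage markers 1 was lower (Comp) and 0 higher. All 8 endothelial markers, all 5 of skeletal muscle, all 3 of adipocytes (Fabp4 called higher within that range) and both erythroid ones were at background on every array. The cartilage list and these lists at background had the same counts of calls without arrays 4 and 10. The part of these markers in the falls of Fmod and Prelp was not tested.

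Among glycosaminoglycan and sulfation enzymes, calls went in both directions. Of 25 measured (30 listed), 4 were called higher and 4 lower, 16% each, where 7.61% and 7.87% of all probesets were, and 14.2% and 14.8% of those above background. Of the 25, 6 were at background on every array, so the last 2 shares are not over a like set. The list also holds the tyrosine sulfotransferases Tpst1 and Tpst2, which do not act on the chains. The list median was -0.02. B4galt1, a galactosyltransferase that can extend keratan sulfate, fell 3.90-fold (log2 -1.96, SE 0.19, limma adjusted p = 2.44e-05), from 13.5 ± 0.17 to 11.5 ± 0.43 (SD, n = 5 each). Xylt2, which starts the chain linker on the core protein, fell at least 1.47-fold to the background level. Csgalnact2, a chondroitin chain initiator, and Tpst1, a tyrosine sulfotransferase, fell 1.55-fold and 1.36-fold (limma adjusted p = 0.048 and 0.036). The rises were in chondroitin enzymes, the sulfotransferases Chst15 (at least 2.46-fold, limma adjusted p = 0.0060, above background on 3 of the ShCtrl arrays) and Chst11 (1.88-fold, limma adjusted p = 0.0041), the initiator Csgalnact1 (1.87-fold) and the chain polymerase Chsy1 (1.61-fold). Chst14, which sulfates dermatan as found on decorin and biglycan, differed by -0.09 (SE 0.26, limma adjusted p = 0.89). The number lower was 2 without array 3, 5, 6, 7, 8 or 9, and 3 (with 4 higher) without arrays 4 and 10. In the fit without arrays 4 and 10, 10.1% of all probesets were called lower and 9.84% higher.

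Proteases that can cut these core proteins rose in part. Their list also holds Pcolce (not called) and Pcolce2 (no named probeset), which are enhancers of procollagen cleavage and not proteases. Of 17 measured (18 listed), 5 were called higher and 1 lower, where 7.61% and 7.87% of all probesets were (14.2% and 14.8% of those above background), with a median of 0.28. Of the 17, 3 were at background on every array, so the shares in brackets are not over a like set. Without arrays 4 and 10 the counts were 7 and 2, where 9.84% and 10.1% of all probesets were. Mmp13, a collagenase that cleaves fibromodulin, rose 8.33-fold (a log2 difference of 3.06 with an SE of 0.35; limma adjusted p = 9.00e-05) and the stromelysin Mmp3 3.30-fold (limma adjusted p = 0.0016). Mmp9 rose at least 4.63-fold and Mmp12 at least 3.08-fold, each above background on 1 of the ShCtrl arrays and all of the ShBNIP3 arrays. The membrane-bound Mmp14 fell 1.64-fold (limma adjusted p = 0.015). The aggrecanase genes Adamts4 and Adamts5 differed by -0.21 and 1.53 (limma adjusted p = 0.65 and 0.10). These are transcript levels, and cleavage of the proteins was not measured.

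**Figure D4:**
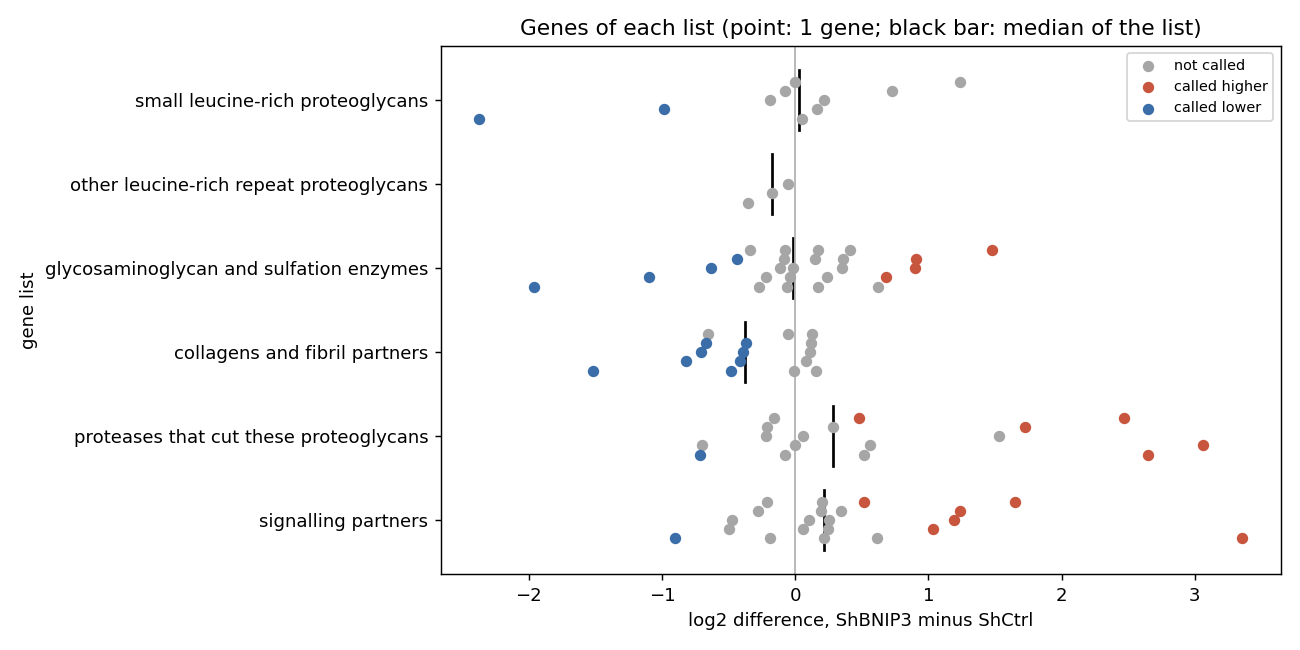
Log2 difference (horizontal axis) of each measured gene in the proteoglycan family and 5 related lists, 1 point a gene, red where called higher, blue where called lower and grey otherwise, with a black bar at the median of the list. The collagen list has a median of -0.38 and calls on the left of 0 alone, and Fmod is the point farthest left in any list.

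Another list holds receptors, growth factors and other genes taken as signalling partners of these proteoglycans, whether or not they bind them. Of 21 measured, 6 were called higher and 1 lower, with a median of 0.22. Among all probesets 7.61% and 7.87% were (14.2% and 14.8% of those above background). Of the 21, 3 were at background on every array, so the shares in brackets are not over a like set. The counts were 7 and 1 without arrays 4 and 10, where 9.84% and 10.1% of all probesets were. Bmp2, which biglycan binds, rose 10.2-fold (log2 3.36, SE 0.44, limma adjusted p = 0.00025). Tlr2, an innate receptor for soluble biglycan and decorin, rose 3.14-fold (limma adjusted p = 0.021), while Tlr4, the other such receptor, differed by 0.10 (limma adjusted p = 0.64). P2rx4, an ATP-gated channel reported to act with biglycan signalling, rose 2.36-fold and the TGF-beta receptor Tgfbr1 2.28-fold. Tgfb1, the ligand that decorin, biglycan, fibromodulin and asporin bind, differed by 0.25 (SE 0.16, limma adjusted p = 0.36). The PDGF receptor Pdgfrb, also counted among the pericyte markers, fell 1.87-fold (limma adjusted p = 0.00070).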

How the data were processed

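Labels gave 10 arrays in 2 groups of 5 by title. The authors' deposited values are log2 expression per probeset after sst-rma normalization, per the labels, of biotin-labelled WT Plus samples. The tool was the Transcriptome Analysis Console, per the submitters' processing notes, in a version not given in the sources used here. RNA was collected 4 days after transduction. The extraction text also mentions mouse tissue, which matches neither organism nor treatment here.

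Of 24834 probesets, 1646 controls were left out and 23188 tested with limma 3.58.1 (lmFit, eBayes) in R 4.3.3, adjusted after Benjamini-Hochberg and called under 0.05. The script was tested on simulated data. No filter on low values was used. A probeset was at background in a group when every array of it lay under the 95th percentile of 23 antigenomic probesets. A fold against a group at background is then a lower bound, and for Mmp9, Mmp12, Chst15, Cd68 and S100b, which were under background on some arrays, it was computed with those values raised to the background level. For arrays, their number limits the precision.

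In the platform annotation 15049 probesets have 1 symbol, 0 several and 8139 none. A gene with several probesets (10 genes) is read from the brightest. Pairs of members were compared with exact two-sided permutation tests over arrays, in 6 pairs that do not cover every same-class pair. Named genes are Bnip3, the members, the other leucine-rich proteoglycans, at most 4 called genes per list and direction, and 8 set by name, of which Xylt1 has no named probeset. The members and lists were chosen with earlier results of these data known. Tlr4, the marker genes and Cenpp are named beyond this rule. The alternatives were leaving out arrays, another variance model, array weights, quantile normalization, filters on dim probesets and a 2-fold minimum.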

Additional observations from a re-analysis of the deposited data

Results flagged for a closer look

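In groups of 5 arrays, a value was marked when its gap to the nearest other array made up more than 0.71 of the range of the group. Chance marks about 1 in 20 groups, and 12 values were marked in the 82 groups of 41 genes. Most lay on array 4 or array 10. Omd on ShBNIP3 array 10 was at 8.30, with the next value at 11.03, and Ogn on the same array at 13.02, with the next at 15.22. Chst14 was lowest there at 9.73, and Mmp9 and Adamts5 were highest there at 10.21 and 13.13. On ShCtrl array 4 Tsku was lowest at 10.13, and Chst11, Mmp13 and P2rx4 were highest at 11.58, 16.80 and 11.68. Elsewhere Bgn was highest on ShCtrl array 1 at 18.98, next to 18.90, and on ShBNIP3 array 6 Mmp13 was lowest at 17.89 and Nyx lowest at 3.99, the last within the background range.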

How the results depend on the processing

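Fmod and Prelp kept their direction and call in all 16 alternative fits, with log2 differences of -2.67 to -2.15 and -1.12 to -0.87, and Bnip3 did likewise (-3.53 to -2.87). With a minimum change of 2-fold added to the call, Prelp was not called, so that 1 member (Fmod) was called lower in place of 2, and 333 probesets were called higher and 636 lower in place of 1765 and 1825. With arrays 4 and 10 left out together, 1 member was called higher, Omd at 1.24, and Bgn at -0.19 was called with a trended and robust variance. Members with differences near 0 changed sign. Lum ranged from -0.023 to 0.050, Ogn from -0.22 to 0.68, Chad from -0.015 to 0.14 and Epyc from -0.28 to 0.053 with 1 array left out, and without arrays 4 and 10 together Lum was at -0.034 and Epyc at 0.018, with Lum at -0.018 under array weights. None of these was called in any setting. Dcn ranged from 0.059 to 0.35, Omd from 0.62 to 1.86 and Aspn from 0.36 to 1.02 with 1 array left out. Between members, Fmod minus Lum ranged from -2.65 to -2.13, Prelp minus Omd from -2.97 to -1.60 and Ogn minus Epyc from -0.18 to 0.69 with 1 array left out. Fmod minus Lum was -2.47 without arrays 4 and 10 together, where 4 against 4 arrays cannot give an exact permutation p below 0.029. With 1 array left out, the number lower was 2 to 4 for the glycosaminoglycan and sulfation enzymes. It was 1 to 2 for the protease list and 0 to 1 for the other leucine-rich proteoglycans. The proteases had 2 lower and the other leucine-rich proteoglycans 1 lower both without arrays 4 and 10 together and under array weights. Where no value shows it, the cause was not tested. Epyc and Chad had no value under the filters on dim probesets. No member had a second probeset to try. No paired analysis was possible because the groups share no array numbers. Levels near or under background limit what can be said of Epyc, Chad, Kera and Nyx.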
